A study of Homo sapiens with 6 samples.

Results

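A set of 10 known target genes of the Wnt pathway were followed through RNA-seq libraries of Ishikawa cells, a human endometrial adenocarcinoma line that responds to estrogen. They were LBH and 9 genes widely used as canonical Wnt targets, namely AXIN2, LGR5, NKD1, RNF43, ZNRF3, LEF1, TCF7, SP5 and NOTUM. Members were found by their symbol in the table of counts, and all 10 were among its 26364 genes. LBH was chosen by these measured counts, which were higher in knockout libraries than in parental ones. Every difference between clones and parental line is therefore given below for the members as a description, with no test, and the 9 other genes serve as its comparison.

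The study compared the parental line (WT Ishikawa) with 2 clones in which ETV4, an ETS family transcription factor gene, had been knocked out. Each line was given 0.1% DMSO as the vehicle or 10 nM 17β-estradiol (E2), after 5 days in hormone-depleted medium. The 4 groups were the ETV4 knockout in DMSO, the ETV4 knockout in E2, the parental line in DMSO and the parental line in E2. Each line gave 1 library per treatment, so the knockout groups held 2 libraries, 1 from each clone, and the parental groups held 1. Treatment time is given as 8 h in the protocol and as 1 h in the sample characteristics, and which holds could not be settled.

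In the canonical Wnt pathway, a secreted Wnt protein binds a Frizzled receptor and an LRP co-receptor. This stops a complex built on Axin and APC from degrading beta-catenin, which then enters the nucleus and activates genes through the TCF/LEF transcription factors. Many of the genes switched on in this way act back on the pathway, which is why they serve as its readouts. LBH encodes a small transcriptional cofactor first studied in limb bud and heart, and it is a known Wnt target in epithelial tissues. In the endometrium, Wnt signalling takes part in the growth of glands and is under the influence of estrogen and progesterone.

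Promoter sequences are shown for 3 members because TCF/LEF factors act by binding DNA: SP5 and TCF7, whose windows held a TCF/LEF word, and LBH, whose window held none. RefSeq promoter windows were at hand for 5 of the 10 members (LBH and 4 of the 9 canonical targets, RNF43, LEF1, TCF7 and SP5), in 7 windows on GRCh38.p14. The 250 bases before each start were searched on both strands for 4 forms of the TCF/LEF word: either CTTTGAA or else CTTTGAT, or else CTTTGTA or else CTTTGTT. Each sequence below is read 5′ to 3′ on the strand of the gene, with matches in capitals.
SP5, chr2:170715087-170715336, plus strand: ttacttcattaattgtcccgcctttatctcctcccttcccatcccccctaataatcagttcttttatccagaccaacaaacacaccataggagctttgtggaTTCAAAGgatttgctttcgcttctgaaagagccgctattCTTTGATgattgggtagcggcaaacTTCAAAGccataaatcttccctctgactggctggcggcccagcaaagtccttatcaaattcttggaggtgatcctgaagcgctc
TCF7, second start, chr5:134123368-134123617, plus strand: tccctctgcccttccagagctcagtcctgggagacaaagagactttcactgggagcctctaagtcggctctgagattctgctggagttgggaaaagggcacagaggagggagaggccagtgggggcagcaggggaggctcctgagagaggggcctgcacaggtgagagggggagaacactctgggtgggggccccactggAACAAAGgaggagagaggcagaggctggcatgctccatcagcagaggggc
LBH, chr2:30231284-30231368, plus strand: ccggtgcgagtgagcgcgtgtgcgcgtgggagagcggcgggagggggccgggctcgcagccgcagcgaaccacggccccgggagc

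SP5 held 3 matches, which begin at positions -148, -109 and -84 from the start. At least 3 matches were found in 0.122% of all 35116 windows of the same length, and at least 1 in 12.0%. TCF7 held 1 match, at position -50 from its second start. LBH held none in its 250 bases, of which the 85 outside annotated exons are printed, and neither did the windows of RNF43, LEF1 and the first start of TCF7. These matches are a description of letters, and their absence from a window says nothing about binding there or elsewhere.

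The ETS word CCGGAAG was found in 8.52% of all windows and, among the members, in the window of the first start of TCF7 alone. That window also held the estrogen receptor half-site AGGTCA, which 12.1% of windows had.

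Libraries held between 28037392 and 36829479 counts. The targeted gene was low in every clone library: in the parental line ETV4 had 586 counts (DMSO) and 1063 (E2), against 122 and 86 in clone 1 and 71 and 81 in clone 2. It differed by -3.04 on the log2 scale (SE 0.21, adjusted p 0.00868 by the Benjamini-Hochberg adjusted quasi-likelihood test of edgeR). Its adjusted p in that test was 0.0561 without the E2 library of clone 2, 0.0986 without the parental DMSO library and 0.115 without the parental E2 library, at log2 differences of -2.97, -3.32 and -2.75. All 10 of the epithelial markers averaged at least 1 CPM (counts scaled to the library size after TMM normalisation), including EPCAM, KRT8, PAX8 and ESR1. Their summed level was 2657 to 3618 CPM in the clone libraries and 2880 to 3572 CPM in the parental ones. Of 16 markers of stroma, leukocytes and endothelium, 4 averaged at least 1 CPM (COL1A1, COL3A1, CD68 and VWF), while CD3E had 0 counts in every library. The summed level of the 7 stromal markers, mostly COL1A1, was 46.8 to 74.5 CPM in the clones and 58.2 to 86.1 CPM in the parental line. Within that list COL3A1 was at 1.34 to 3.35 CPM in the clones against 7.93 and 9.73 CPM in the parental line, and PDGFRA at 0.102 to 0.251 against 0.321 and 0.538 CPM. Both were thus lower in every clone library, as were 7.82% of all tested genes. Summed leukocyte markers were at 3.24 to 5.12 against 3.23 to 5.61 CPM, and summed endothelial markers at 2.70 to 4.55 against 1.65 to 2.46 CPM. The part of these markers in the members' values was not tested. In such bulk libraries, fewer cells that express a gene and less RNA per cell cannot be told apart. Each line is 1 parental culture or 1 clone, and nothing states that libraries came from separate cultures, so every p-value measures only the spread between these libraries. For the parental line, genotype and any other difference from the clones cannot be told apart.

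LBH was the member that stood furthest above the parental line in both clones and both treatments, apart from the nearly silent LGR5. In the parental line LBH was at 4.67 (DMSO) and 5.05 CPM (E2), from 139 and 189 counts. Clone 1 had 25.1 and 22.2 CPM, and clone 2 had 32.0 and 19.4 CPM. The 4 clone libraries thus all lay above both parental ones, with the lowest clone value at 19.4 CPM. The clones averaged 28.6 ± 4.91 CPM in DMSO and 20.8 ± 1.98 CPM in E2 (SD, n = 2 clones), which was 6.11 ± 1.05 and 4.12 ± 0.393 times the parental level (SD, n = 2 clones). Over all 6 libraries the fitted log2 difference was 2.32 (SE 0.22).

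Set among all 15611 genes tested, LBH was far out in the upper tail of the same ratios. Its log2 ratio to the parental line, computed on CPM with a prior count of 2, was 2.41 in clone 1 and 2.76 in clone 2 in DMSO. In E2 it was 2.12 and 1.93. Between 99.5% and 99.6% of the tested genes had a lower ratio in each of these 4 comparisons. Leaving out 1 library or 1 clone moved the fitted difference between 2.03 (without the parental DMSO library) and 2.61 (without the parental E2 library).

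**Figure D1:**
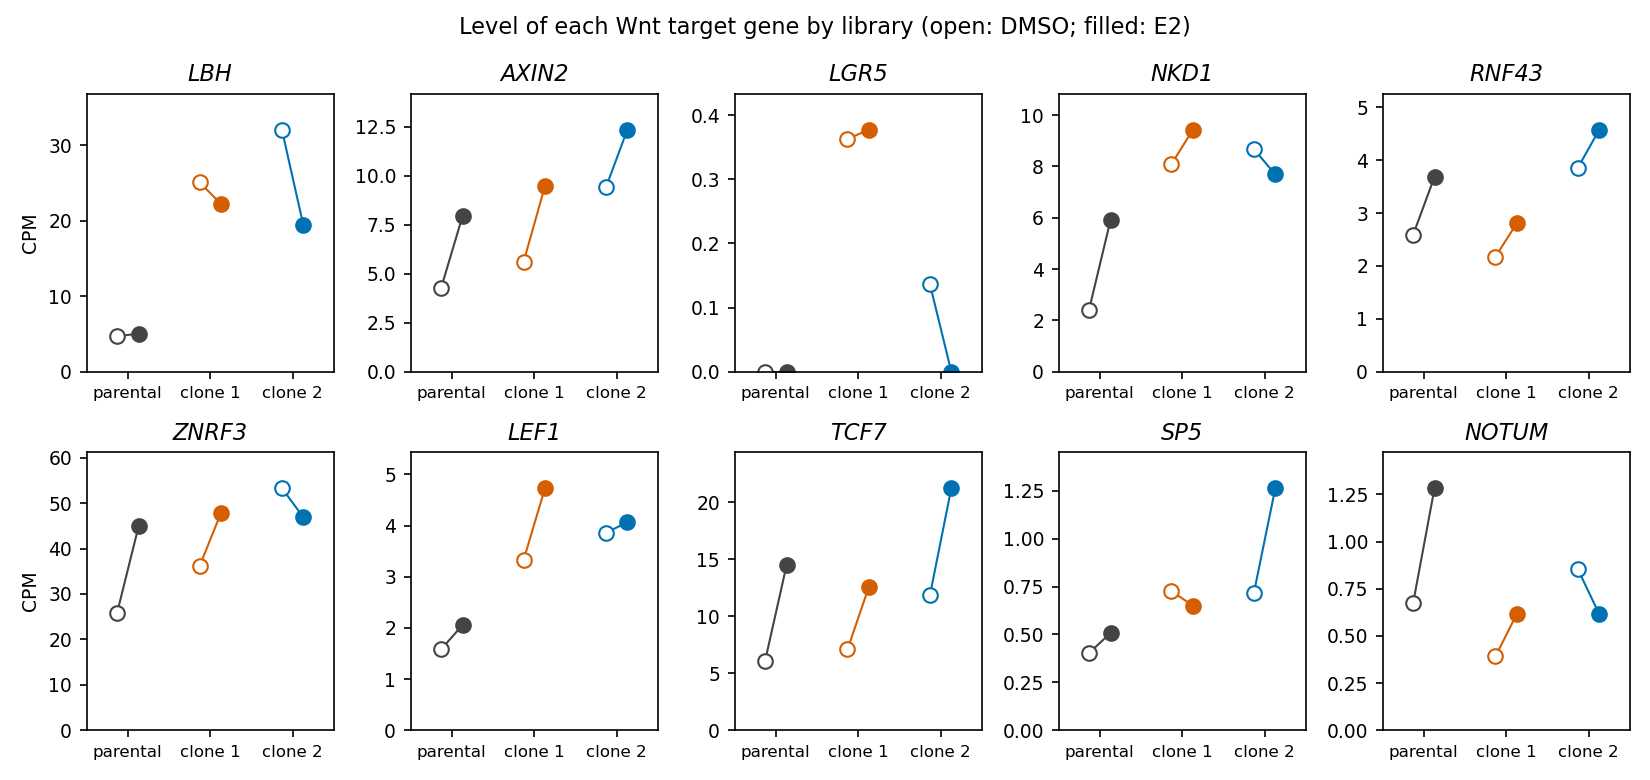
Level of each of the 10 genes in CPM (vertical axis, starting at 0 and scaled per gene) in the parental line, clone 1 and clone 2, with open circles for DMSO, filled circles for E2 and a line joining the libraries of 1 line. LBH sits at 4.67 and 5.05 CPM in the parental line and between 19.4 and 32.0 CPM in the clones, while LGR5 is at 0 in 3 of its 6 libraries.

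Levels can be compared between genes only per length, here as CPM per kb averaged over the 6 libraries. Length is that of the longest annotated transcript paired with RefSeq, or of the longest overall where none was paired. ZNRF3 was highest at 6.20 CPM per kb, followed by LBH at 5.84 and TCF7 at 4.01. Next came AXIN2 at 1.92, LEF1 at 0.940 and RNF43 at 0.595, and the least abundant were NKD1 at 0.411, SP5 at 0.350, NOTUM at 0.317 and LGR5 at 0.0317. The ranges over libraries overlapped between every pair of neighbours in this order, for example from 3.78 to 7.78 for ZNRF3 and from 1.51 to 10.3 for LBH. The 1 exception was LGR5, whose highest value of 0.0818 lay below the lowest of NOTUM, 0.168. The value of NKD1 rests on a transcript of 17105 bases, and a shorter transcript would raise it. In the parental line in DMSO, LBH was at 1.51 CPM per kb, below ZNRF3 at 3.78 and TCF7 at 2.00.

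Among the transcription factors, LEF1 came closest to the pattern of LBH. LEF1, which carries beta-catenin to DNA, was at 1.58 (DMSO) and 2.06 CPM (E2) in the parental line, at 3.32 and 4.73 CPM in clone 1, and at 3.86 and 4.07 CPM in clone 2. All 4 clone libraries were above both parental ones, and the fitted log2 difference was 1.14 (SE 0.23). TCF7, a factor of the same family, was at 6.08 and 14.5 CPM in the parental line, at 7.09 and 12.6 CPM in clone 1, and at 11.8 and 21.2 CPM in clone 2. Its libraries overlapped between clones and parental line, at a fitted difference of 0.42 (SE 0.30) that was 0.73 without clone 1 and close to 0 without clone 2. SP5, a zinc finger repressor that limits Wnt target genes, had 12 and 19 counts in the parental line, 26 and 19 in clone 1, and 21 and 37 in clone 2. On the CPM scale these were 0.403 and 0.508, 0.726 and 0.651, and 0.717 and 1.26, so the groups did not overlap, at a fitted difference of 0.87 (SE 0.41).

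The next 4 members act as feedback inhibitors at the membrane or just beneath it. NKD1, which binds Dishevelled and dampens the signal, was at 2.42 (DMSO) and 5.91 CPM (E2) in the parental line, at 8.09 and 9.43 CPM in clone 1, and at 8.67 and 7.69 CPM in clone 2. Clone libraries were all above the parental ones, most clearly in DMSO. The fitted log2 difference of 1.10 (SE 0.32) was 0.53 without the parental DMSO library and 1.79 without the parental E2 library. ZNRF3, a ubiquitin ligase that removes Frizzled receptors from the cell surface, was at 25.9 and 44.9 CPM in the parental line, at 36.1 and 47.8 CPM in clone 1, and at 53.3 and 46.9 CPM in clone 2. In E2 its 3 lines lay within 44.9 to 47.8 CPM, and the fitted difference of 0.42 (SE 0.22) was 0.07 without the parental DMSO library and 0.79 without the parental E2 library. ZNRF3 and LEF1 overlap antisense genes, whose counts were 1 to 6 (ZNRF3-AS1) and 0 to 2 (LEF1-AS1), and since the use of strand in counting is not given in the sources used here, reads of each pair cannot be told apart. RNF43, the closest relative of ZNRF3, was at 2.59 and 3.69 CPM in the parental line, at 2.18 and 2.81 CPM in clone 1, and at 3.86 and 4.58 CPM in clone 2. Clone 1 was thus below and clone 2 above the parental line in each treatment, with a fitted difference of 0.11 (SE 0.33) that was -0.32 without clone 2. NOTUM, a secreted enzyme that strips the lipid from Wnt proteins, had 20 and 48 counts in the parental line, 14 and 18 in clone 1, and 25 and 18 in clone 2. It was the 1 member with a negative fitted difference, at -0.63 (SE 0.43), which was -0.13 without the parental E2 library and -1.06 without the parental DMSO library.

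AXIN2, the scaffold of the degradation complex and the most widely used Wnt readout, was at 4.27 (DMSO) and 7.94 CPM (E2) in the parental line, at 5.58 and 9.46 CPM in clone 1, and at 9.39 and 12.3 CPM in clone 2. Within each treatment both clones were above the parental line, but clone 1 in DMSO was below the parental line in E2. The fitted log2 difference was 0.62 (SE 0.27), and it was 0.32 without clone 2. LGR5, an R-spondin receptor known as a stem cell marker, had 0 counts in both parental libraries and in clone 2 in E2. It had 13 and 11 counts in clone 1 and 4 in clone 2 in DMSO. With 3 counts taken as the limit that a parental count of 0 allows, the observed level of clone 1 was 3.60 times that limit in DMSO. In E2 it was 4.70 times the limit, and clone 2 was at 1.35 times the limit in DMSO. These ratios take the clone counts as exact, so they leave out the counting error of the clones and are not lower bounds.

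In DMSO, 7 of the 9 canonical targets exceeded the parental line in both clones, as did 42.0% of all tested genes, and 3 of the 9 (LGR5, NKD1 and LEF1) were higher by at least 2-fold in both on the scale with a prior count of 2, as were 4.14% of all. For LGR5 that scale goes past the ratio of 1.35 to its parental limit in clone 2, which leaves NKD1 and LEF1. LEF1 only just passed in clone 1, at a log2 ratio of 1.04 from 119 counts against 47. In E2, 5 of the 9 were higher in both clones, against 35.6% of all genes, and none was at least 2-fold higher in both, against 1.34%. Without LGR5, the median log2 ratio of the other 8 to the parental line in DMSO was 0.43 in clone 1 and 0.99 in clone 2, where the medians over all tested genes were 0.01 and 0.02. In E2 the medians were 0.17 and 0.46, against 0.0039 and 0.02. Clone libraries were all above both parental ones for 3 of the 9 (NKD1, LEF1 and SP5) and for LBH, as for 8.53% of all tested genes. The fit over 6 libraries called 0.327% of all tested genes, and 0.147% as higher in the clones, at an adjusted p below 0.05. Because these comparisons chose LBH, and because those in DMSO share 1 parental library and those in E2 another, nothing is read from the counts.

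**Figure D2:**
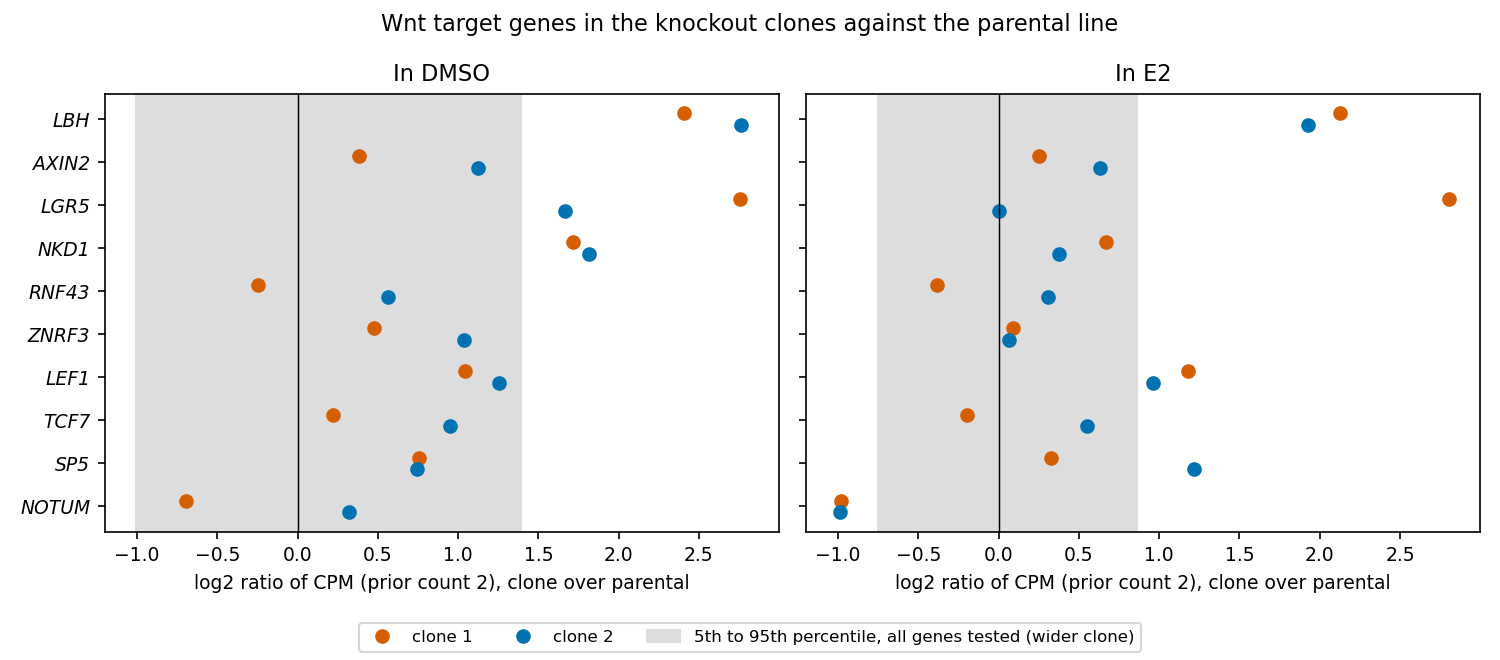
Log2 ratio of each clone to the parental line (horizontal axis, from CPM with a prior count of 2) for the 10 genes, in DMSO on the left and in E2 on the right. Orange points are clone 1, blue points are clone 2, and the grey band spans the 5th to 95th percentile of all tested genes in the clone where it is wider. LBH lies right of the band in all 4 comparisons, from 1.93 to 2.76. In both clones NKD1 lies right of it in DMSO alone, and LEF1 in E2 alone, at 1.18 and 0.96. LGR5 lies right of it in both clones in DMSO and in clone 1 in E2, and SP5 in clone 2 in E2. NOTUM lies left of the band in both clones in E2, at -0.98 and -0.99.

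The E2 change of the parental line was more closely related to GC content than that of either clone. GC content is the share of G and C in the transcript used for length, known for 93.6% of tested genes. Across genes, the log2 change from DMSO to E2 correlated with GC content at a Spearman rho of 0.329 for parental cells, 0.128 for clone 1 and -0.0095 for clone 2. With each library's trend on GC content and length removed, LBH kept ratios to the parental line of 2.39 and 2.67 in DMSO and 2.16 and 1.96 in E2. The medians of the 8 canonical targets without LGR5 became 0.25 and 0.68 in DMSO and 0.22 and 0.46 in E2. NKD1, whose DMSO ratios were 1.72 in clone 1 and 1.81 in clone 2, had 1.34 and 1.06 after this correction. LEF1, at 1.04 and 1.26 in DMSO before it, had 0.998 and 1.13, so clone 1 was then just below 2-fold.

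The next comparison asked whether E2 changed these genes over the 3 lines, a contrast that the rule for LBH did not use. TCF7 and AXIN2 showed the largest differences among the 10. TCF7 was higher in E2 than in DMSO in every line, at log2 ratios of 1.24 (parental), 0.82 (clone 1) and 0.84 (clone 2). Its fitted change of 0.97 (SE 0.28) had an adjusted p of 0.157 by the Benjamini-Hochberg adjusted quasi-likelihood test of edgeR, and with line as a replicate block the same change of 0.97 (SE 0.15) had an adjusted p of 0.0332. DESeq2's Wald test gave an adjusted p of 0.0202. On leaving out a library or line, the fitted change of TCF7 ran from 0.78 (without the E2 library of clone 2) to 1.25 (without the DMSO library of clone 2). It passed in some of these fits and not in others.

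AXIN2 was also higher in E2 in 3 of 3 lines, by 0.88, 0.75 and 0.39. Its fitted change of 0.66 (SE 0.25) had an adjusted p of 0.215, and 0.0838 with the replicate block, by the Benjamini-Hochberg adjusted quasi-likelihood test of edgeR. It passed with the block after the GC and length correction, at 0.59 and an adjusted p of 0.0343 in that test. With a library or line left out, its fitted change ran from 0.49 (without the DMSO library of clone 1) to 0.93 (without the DMSO library of clone 2). AXIN2 passed in some of these fits and not in others. LBH did not follow these 2 genes: its log2 ratio of E2 to DMSO was 0.11 for the parental line, -0.18 for clone 1 and -0.72 for clone 2. The fitted change of LBH was -0.28 (SE 0.18), with an adjusted p of 0.400 by the Benjamini-Hochberg adjusted quasi-likelihood test of edgeR.

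None of the 10 members passed in that test, where 1.13% of all genes did and 0.903% were higher in E2. At an unadjusted p under 0.05 there were 2 (TCF7 and AXIN2), as for 20.4% of all genes. DESeq2 called 1 (TCF7) where it called 7.14% of all genes, and limma-voom called 0 where it called 1.11%. The replicate block called 1 (TCF7) where it called 2.46% of all genes. The 7 other members had fitted log2 changes between -0.42 for LGR5 and 0.42 for NKD1. RNF43 and LEF1 were higher in E2 in each line, by 0.24 to 0.50 and by 0.07 to 0.50. With TCF7 and AXIN2, 4 of the 9 canonical targets had this pattern, against 27.8% of all tested genes.

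**Figure D3:**
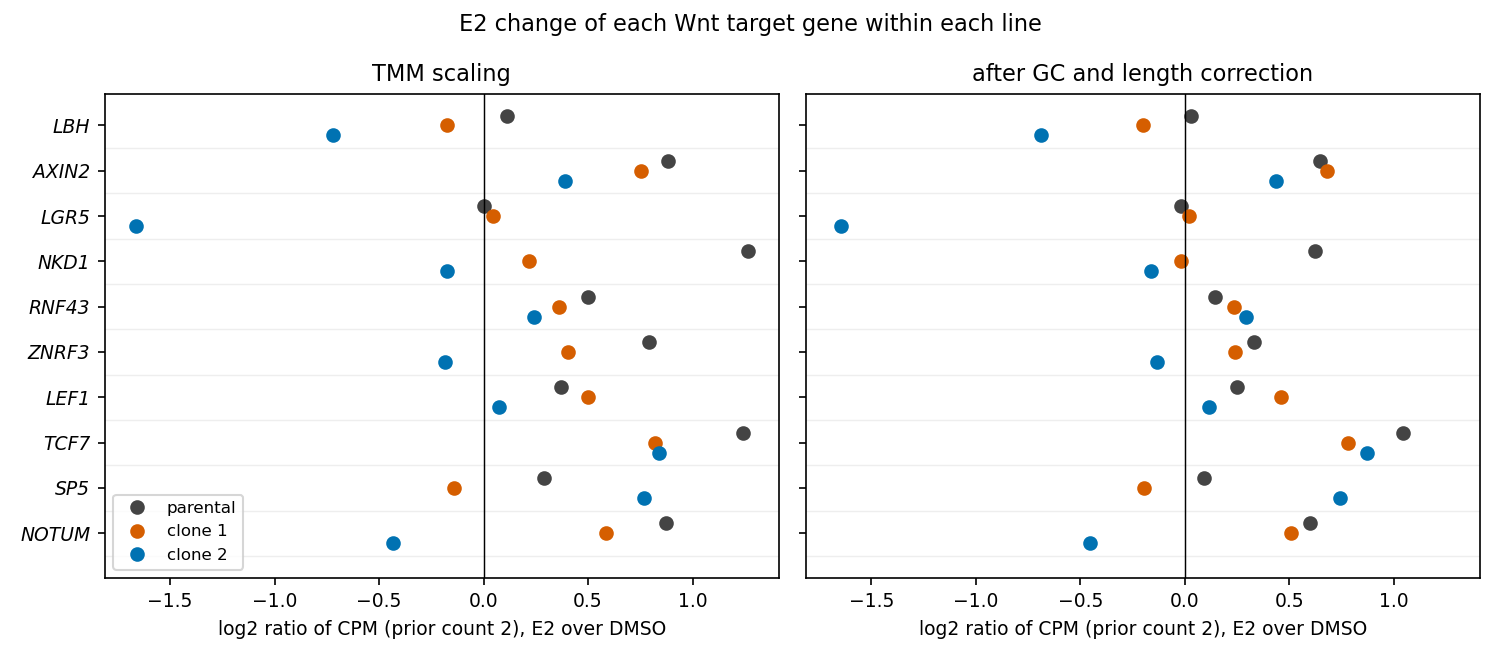
Log2 ratio of E2 to DMSO within each line (horizontal axis, from CPM with a prior count of 2) for the 10 genes, as scaled by TMM on the left and after removal of each library's trend on GC content and transcript length on the right. Black points are the parental line, orange points clone 1 and blue points clone 2. NKD1 in the parental line moves from 1.27 on the left to 0.62 on the right, whereas TCF7 moves from 1.24 to 1.05.

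Whether the E2 change differed between the clones and the parental line was tested as an interaction, in which NKD1 had the largest difference. NKD1 was higher in E2 by 1.27 in the parental line, by 0.22 in clone 1 and by -0.17 in clone 2 on the log2 scale. Its interaction (E2 change in clones minus that in the parental line) was -1.26 (SE 0.40), with an adjusted p of 0.617 by the Benjamini-Hochberg adjusted quasi-likelihood test of edgeR and 0.00231 with the replicate block. For ZNRF3, with E2 changes of 0.79, 0.41 and -0.18, the interaction was -0.71 (SE 0.35, adjusted p 0.617) and -0.68 with the block (adjusted p 0.0173) in the same edgeR tests. The block left 1 residual degree of freedom, so its p-values rest on a spread pooled over genes rather than on that of each gene. It called 15.8% of all genes, 6.92% as lower and 8.90% as higher. With the GC and length correction in the same fit, the values were -0.73 for NKD1 and -0.28 for ZNRF3, with adjusted p-values of 0.140 and 0.367, and neither passed.

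For LBH the interaction was -0.57 (SE 0.35), with an adjusted p of 0.636 by the Benjamini-Hochberg adjusted quasi-likelihood test of edgeR and 0.124 with the replicate block. The other members with a value passed neither fit, and LGR5 had none because both parental libraries were at 0. Without the block, edgeR called 0.00% of all genes and 0 of these 9. At an unadjusted p under 0.05 there were 1 of the 9 (NKD1) and 1190 of all genes. DESeq2 and limma-voom called 0 of the 9 as well, beside 0.167% and 0 of all genes. In the parental line, 2 of the 9 canonical targets (NKD1 and TCF7) were at least 2-fold higher in E2, as were 11.3% of all genes, and none was in either clone, where 3.97% and 3.89% of genes were. After the GC and length correction only TCF7 was. For 6 of the 9 the E2 change was higher in the parental line than in both clones, as for 44.4% of all genes. Without LGR5, the median E2 ratio of the other 8 was 0.83 for the parental line, 0.45 for clone 1 and 0.16 for clone 2, and after that correction 0.46, 0.35 and 0.20.

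The 2 clones were then compared with each other over both treatments, which the rule for LBH did not use either. LBH levels overlapped between them: the difference of clone 2 minus clone 1 was 0.10 (SE 0.21), with an adjusted p of 0.860 by the Benjamini-Hochberg adjusted quasi-likelihood test of edgeR. Its sign changed with the treatment, from a log2 ratio of 0.35 in DMSO to -0.19 in E2. The 3 largest differences apart from LGR5 were all toward clone 2, at 0.76 (SE 0.21) for RNF43, 0.75 (SE 0.18) for TCF7 and 0.57 (SE 0.19) for AXIN2. Their adjusted p-values were 0.236, 0.174 and 0.325 by the Benjamini-Hochberg adjusted quasi-likelihood test of edgeR, and each of the 3 was higher in clone 2 in both treatments. Each of the 3 passed when either parental library was left out, in fits that called far more of all genes than the fit of 6 libraries. Such a fit keeps 1 library of the parental line, and its p-values rest on a spread pooled over genes rather than on that of each gene. They are therefore not given.

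No member passed in the fit of all 6 libraries, in which 0.871% of all genes did. At an unadjusted p under 0.05 there were 3 of the 10, as for 12.1% of all genes. DESeq2 and limma-voom called 0 as well, beside 2.36% and 0.807% of all genes. LGR5 was lower in clone 2, at a fitted difference of -2.40 and an adjusted p of 0.428 by the same test, but it rests on the few counts given above. LGR5 was kept for testing only by its counts in clone 1, so the direction of this difference was set in advance.

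The rest of the pathway was read from 7 lists with 112 genes in all, of which 87 were abundant enough to be tested. In the comparison of clones with the parental line, 0 of the 87 passed as higher and 1 as lower, beside 0.147% and 0.179% of all genes. The 1 was ID2, a known Wnt target that encodes an inhibitor of helix-loop-helix factors. It was at 18.9 (DMSO) and 12.6 CPM (E2) in the parental line, at 6.70 and 5.48 CPM in clone 1, and at 5.50 and 5.88 CPM in clone 2. All 4 clone libraries were thus below both parental ones, as for 7.82% of all tested genes. ID2 fell by 1.40 on the log2 scale (SE 0.18), with an adjusted p of 0.0483 by the Benjamini-Hochberg adjusted quasi-likelihood test of edgeR. With line as a random replicate block in limma-voom the adjusted p was 0.0589, and it lay between 0.0599 and 0.588 on leaving out 5 of the 6 libraries in turn. No list gene was called higher. At an unadjusted p under 0.05 in edgeR's test, 5 of the 87 were higher, beside 1035 of all 15611 genes. As higher, DESeq2 called 1 (TLE1, seen after the fact) beside 1.92% of all genes, and limma-voom called 0 beside 0.147%.

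Wnt ligands had the highest median among the lists, at 0.38 over 12 tested of 19, beside a median of 0.01 over all tested genes. None of the 12 passed. WNT7A, the most abundant ligand, was at 53.5 and 46.5 CPM in the parental line in DMSO and E2, at 102 and 103 CPM in clone 1, and at 80.4 and 52.2 CPM in clone 2. Its log2 difference was 0.76 (SE 0.27, adjusted p 0.380), and that of the ligand WNT3 was 0.22 (SE 0.22, adjusted p 0.666), both by the Benjamini-Hochberg adjusted quasi-likelihood test of edgeR. For Wnt secretion factors the median was -0.08 over 3 genes, with 0.47 (SE 0.16) for the Wnt carrier WLS and -0.08 (SE 0.20) for PORCN, which attaches the lipid to Wnt proteins. The receptors had a median of 0.12 over 16, with -0.07 (SE 0.21) for the Frizzled gene FZD6 and 0.27 (SE 0.15) for the co-receptor gene LRP6.

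Antagonists at the cell surface were the list with the lowest median, -0.14 over 8 tested of 16. The most abundant of them were KREMEN1, a receptor for Dickkopf inhibitors, at 0.34 (SE 0.20), and TPBG at 0.27 (SE 0.13). Cytoplasmic components had a median of 0.11 over 17, where CTNNB1, which encodes beta-catenin, was at -0.04 (SE 0.14) and the Dishevelled gene DVL3 at 0.28 (SE 0.18). Nuclear components had a median of 0.07 over 14, with 0.04 (SE 0.16) for the corepressor gene CTBP2 and 0.16 (SE 0.18) for CHD8. Further Wnt targets had a median of 0.15 over 17 tested of 23, with 0.56 (SE 0.25) for the cyclin gene CCND1 and -0.15 (SE 0.13) for MSX1. Apart from ID2, none of these genes passed.

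In the E2 comparison 0 of the 87 passed in either direction, beside 1.13% of all genes. At an unadjusted p under 0.05 there were 14 (16.1%) by the quasi-likelihood test of edgeR, beside 20.4% of all genes. DESeq2 called 7 of the 87 (8.05%) and 7.14% of all genes, and limma-voom called 0 and 1.11%. The replicate block called 1 and 2.46% of all genes. The 1 was NKD2, the paralog of NKD1, named after its values were seen. It was higher in E2 by 1.06 (parental), 1.03 (clone 1) and 0.85 (clone 2), and had a log2 change of 0.99 with an adjusted p of 0.0201 by the quasi-likelihood test of edgeR with the block. For the interaction, 0 of the 87 passed without the block in edgeR, DESeq2 and limma-voom. Of all genes, DESeq2 called 0.167% and edgeR and limma-voom called 0. At an unadjusted p under 0.05 in edgeR there were 3 (3.45%), beside 7.62% of all genes. With the block 1 of the 87 was higher and 8 (9.20%) were lower, beside 8.90% and 6.92% of all genes. With the GC and length correction in the same fit 1 was higher and 1 lower, beside 3.77% and 2.57% of all genes. Between the clones 0 of the 87 passed, beside 0.871% of all genes. At an unadjusted p under 0.05 in edgeR there were 11 of the 87, beside 12.1% of all genes. DESeq2 called 1 of the 87 and 2.36% of all genes, and limma-voom called 0 and 0.807%.

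**Figure D4:**
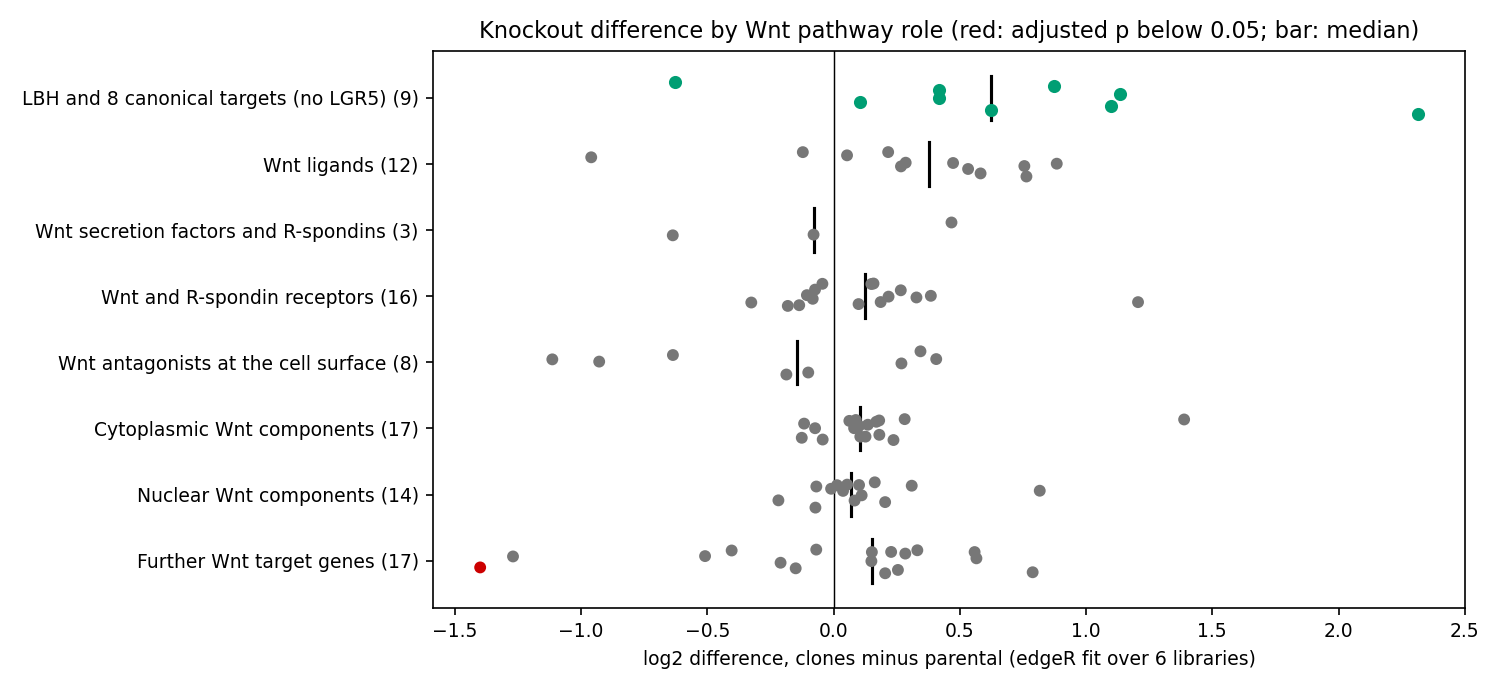
Log2 difference of clones minus parental line (horizontal axis, edgeR fit over 6 libraries) for LBH and 8 canonical targets in green and for 7 lists of other pathway genes, with the number of tested genes in brackets and the median as a bar. LGR5 is left out because its fitted value has no bound, and the green points carry no test. ID2, in red at -1.40, was the 1 list gene with an adjusted p below 0.05, and LBH at 2.32 lay furthest right.

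Genes were also ranked by their likeness to LBH over the libraries, as a description. By Pearson's r of log2 CPM over 6 libraries, among 12366 genes averaging 2 CPM or more, the 5 highest were ZNF568 (0.999), KCTD7 (0.997), ANKRD13A (0.997), ARSJ (0.993) and ITGB8 (0.992). ITGB8, an integrin gene, was at 99.9 and 98.6 CPM in the parental line, at 243 and 254 CPM in clone 1, and at 308 and 201 CPM in clone 2. ARSJ was at 12.2 and 11.5 CPM in the parental line and at 30.6 to 41.2 CPM in the clones. Among canonical targets r with LBH was highest for LEF1 (0.913) and NKD1 (0.828) and lowest for NOTUM (-0.509). For ETV4 it was -0.974. These values describe libraries that fall into a parental and a clone group and share their depth and scaling, and they have no test.

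None of the 4 tested neighbours of LBH on chromosome 2 was above the parental line by as much as LBH in any of the 4 comparisons of a clone with it. In chromosomal order the 3 nearest protein-coding genes on each side are CLIP4, ALK, YPEL5, then LBH, then LCLAT1, CAPN13 and GALNT14. CLIP4 was at 19.1 (DMSO) and 23.9 CPM (E2) in the parental line and at 20.5 to 26.6 CPM in the clones, with a log2 difference of 0.18 (SE 0.14). LCLAT1, next to LBH, was at 73.1 and 56.2 CPM in the parental line and at 57.7 to 78.3 CPM in the clones, with a difference of 0.03 (SE 0.13). For YPEL5, on the other side, the parental line was at 79.2 (DMSO) and 26.2 CPM (E2) and the clones at 37.9 to 57.8 CPM. Its fitted difference of -0.05 (SE 0.27) is a mean over opposite signs, since the log2 ratios of clones 1 and 2 to the parental line were -0.45 and -0.77 in DMSO and 0.66 and 0.53 in E2. Adjusted p-values of these 3 ran from 0.581 to 0.942 by the Benjamini-Hochberg adjusted quasi-likelihood test of edgeR. CAPN13 had 11 counts in each parental library and 0 to 3 in the clones, at a difference of -2.68 (SE 0.92) and an adjusted p of 0.361 in the same test, and ALK and GALNT14 were too low to be tested.

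**Figure D5:**
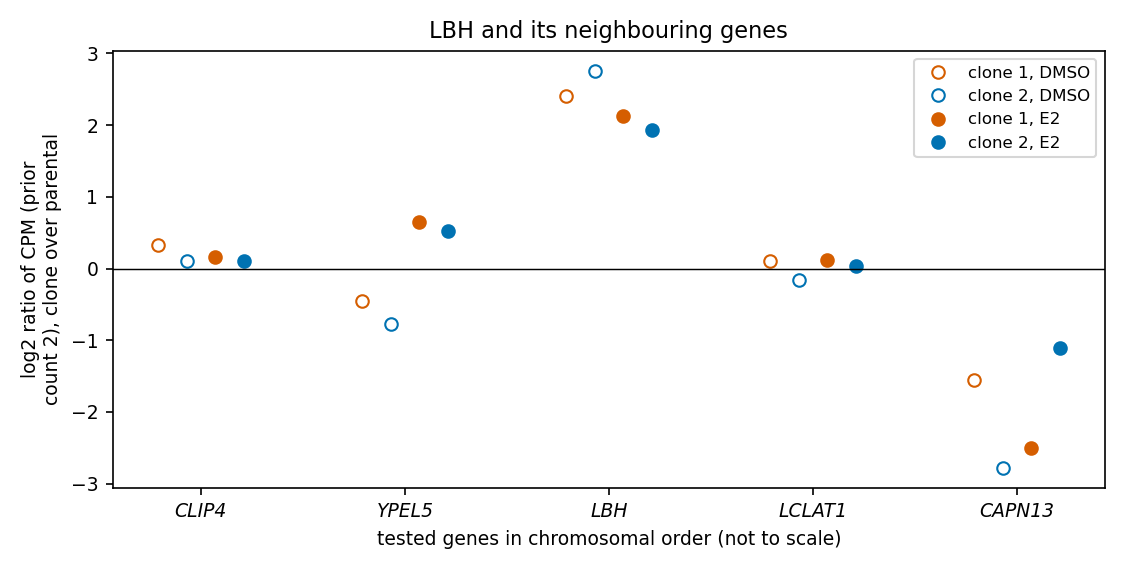
Log2 ratio of each clone to the parental line (vertical axis, from CPM with a prior count of 2) for LBH and its tested neighbours in chromosomal order, with open circles for DMSO, filled circles for E2, orange for clone 1 and blue for clone 2. The 4 ratios of LBH lie between 1.93 and 2.76, those of CLIP4 and LCLAT1 between -0.16 and 0.34, those of YPEL5 at -0.45 and -0.77 in DMSO and at 0.66 and 0.53 in E2, and those of CAPN13, from few counts, below 0.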

How the data were processed

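Gene expression was measured by poly(A)-selected, stranded RNA-seq in 6 libraries, 1 per line and treatment. The authors deposited a table of raw counts per gene and a table of normalized signal. The submitters' processing notes name HISAT2, SAMtools, Subread, DESeq2 and hg19, without roles or versions, and the annotation and the use of strand in counting are not given in the sources used here. In every library the deposited signal equalled the raw count divided by DESeq2's size factor, so the counts were tested and the signal served as an alternative scaling for LBH.

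Analysis of the counts used edgeR 4.0.16 (R 4.3.3): TMM scaling, filterByExpr on the 4 groups (15611 of 26364 genes kept), and the quasi-likelihood test, with p-values adjusted by Benjamini-Hochberg over all tested genes and a threshold of 0.05. Models held treatment and genotype, their interaction, or line and treatment. A standard error is the fitted log2 value divided by the root of its F statistic. The parental groups have 1 library each, so a fit with the interaction takes its spread from the clones alone. Fits without the interaction also use the parental libraries for the spread, and the knockout fit treats libraries of 1 line as independent. The labels name the line of each library, which pairs its DMSO and E2 libraries; across 15611 genes, clone 2 minus clone 1 in DMSO had a correlation of 0.626 with the same difference in E2. Line entered as the replicate block, either fixed or as a random effect in limma 3.58.1 for the knockout effect.

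For each gene, GC content and length came from its longest GENCODE v29 transcript paired with RefSeq, or its longest overall where none was paired. Promoters came from RefSeq on GRCh38.p14, and no coordinate was joined to the hg19 counts. Alternatives were median-ratio scaling, other filters on low counts, DESeq2 1.42.0, limma-voom, prior counts, a 1.5-fold threshold, the block, each library or line left out, and, chosen after seeing the data, the GC and length correction. The script was tested on simulated data. Genes named are the 10 members, ETV4, list genes past the threshold (up to 3 per direction), the 2 most abundant genes of each list, the 5 genes most correlated with LBH and its 3 nearest neighbours on each side. The members and lists were chosen with earlier results of these data known.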

Additional observations from a re-analysis of the deposited data

Results flagged for a closer look

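The E2 change differed between the clones and the parental line, in edgeR's quasi-likelihood test of the interaction with line as a replicate block, for 2 Wnt target genes. The log2 difference (E2 change in clones minus that in the parental line) was -1.26 for NKD1 and -0.68 for ZNRF3, with adjusted p-values of 0.00231 and 0.0173. In 9 of the 87 other pathway genes the same test passed. It was positive for the Frizzled gene FZD6 at 0.84 and negative for the 8 others: -0.72 for WNT3, -0.81 for FZD5, -0.67 for DVL1, -0.95 for BCL9L, -0.74 for EPHB2, -0.79 for CCND1 and, from fewer than 50 counts in each library, -2.54 for APC2 and -2.08 for CEMIP. Their adjusted p-values in edgeR's test ran from 0.00167 (BCL9L) to 0.0303 (WNT3). That fit called 15.8% of all genes and had 1 residual degree of freedom, so its p-values rest on a spread pooled over genes. None of these genes passed without the block. With the GC and length correction in the same fit, FZD6 (0.64, adjusted p 0.0338) and CCND1 (-0.62, adjusted p 0.0368) passed in edgeR's test, while NKD1, ZNRF3 and the 7 other genes did not.

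By sign alone, LBH moved in opposite directions with E2, at a log2 ratio of 0.11 in the parental line against -0.18 in clone 1 and -0.72 in clone 2. With the GC and length correction the parental ratio was 0.029, so nearly no change, and those of clones 1 and 2 were -0.20 and -0.69. Each value rests on 1 library per treatment, and the interaction did not pass in either fit (adjusted p 0.636, and 0.124 with the block, in edgeR's quasi-likelihood test).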

How the results depend on the processing

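LBH was higher in the clones under every alternative, by 4.11 to 6.998 times over 4 scalings and both treatments. With 1 parental library per treatment, depth allows no statement on its spread, and LGR5, SP5 and NOTUM rest on fewer than 50 counts per library.

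Counts of genes called moved as follows, and the cause was not tested. For the knockout effect (51) the count was 460 in DESeq2, 123 after the GC and length correction, and 1 to 996 on leaving out a library or line (1 without the parental E2 library, 2 without the parental DMSO library, 996 without clone 2). For the E2 effect (176) it was 1115 in DESeq2, 420 after the correction, 384 with the replicate block, 1729 with both, and 40 to 3353 on leaving out (40 without the E2 library of clone 2, 3353 without clone 2). For the interaction (0, with 1190 at an unadjusted p under 0.05) it was 26 in DESeq2, 2470 with the replicate block, 926 with the block and the correction, and 0 to 38 on leaving out. For clone 2 minus clone 1 (136) it was 236 with no filter, 63 with at least 10 counts in every library, 369 in DESeq2, 375 after the correction, and 174 to 2754 on leaving out. At 1.5-fold, 1 canonical target in place of 0 was higher in both clones in E2, and 5 in place of 2 were higher in E2 in the parental line, which was 1 after the correction. With the replicate block the calls of the members TCF7 (E2), NKD1 and ZNRF3 (interaction) changed, and no other member's did. Among the list genes those of ID2 (knockout), NKD2 (E2) and 9 genes (interaction) changed.

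Signs turned in tests that had not passed. After the correction the interaction was 0.12 for RNF43 and 0.032 for LEF1, both without and with the block (0.12 and 0.032). The clone difference of LEF1 was 0.00089 with median-ratio scaling, 0.0086 with the strict filter and 0.0018 in DESeq2. On leaving out libraries or lines, the E2 change ran from -4.89 to 0.55 for LGR5 and from -0.017 to 0.81 for NOTUM. The interaction ran from -0.70 to 0.070 for AXIN2, -0.61 to 0.25 for RNF43, -0.21 to 0.023 for LEF1, -0.84 to 0.0039 for TCF7 and -0.48 to 0.48 for SP5. The clone difference ran from -0.26 to 0.42 for LBH, -0.56 to 0.33 for NKD1, -0.13 to 0.66 for ZNRF3, -0.19 to 0.19 for LEF1 and -0.077 to 1.20 for NOTUM.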
